A study of Homo sapiens with 12 samples.

Results

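The genes described here encode receptors for neurotransmitters and for extracellular purines, in HepG2 cells, a line grown from a human liver tumour. They were chosen by gene symbol, which took the receptors for GABA, glycine, glutamate, acetylcholine, serotonin, adrenaline and noradrenaline, dopamine, histamine, ATP and other nucleotides, and adenosine, and left out symbols with a hyphen. The rule found 39 of the 16389 genes in the count table. Of these, 37 encode receptors or receptor subunits. GRID2IP encodes delphilin, a scaffold protein of a glutamate receptor, and HTR7P1 is a processed pseudogene of a serotonin receptor. The annotation holds 125 protein-coding genes that match the rule, and 38 of them were in the table. No histamine, metabotropic glutamate or beta-adrenergic receptor gene was among them, and those genes were not analysed here.

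RNA-seq was performed on 12 poly(A) libraries, with 3 libraries in each group. LG cells were kept in 5.5 mM glucose and HG cells in 20 mM glucose for 48 h, and LGV and HGV cells had the same media and then 1 mM valproic acid (VPA), an inhibitor of histone deacetylases, for another 12 h. Cells of all 4 groups came from the same line and were grown in serum-containing medium. The sources do not say whether the untreated cells were harvested before or after those 12 h, so VPA and culture time cannot be told apart.

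Neurotransmitter receptors are of 2 broad kinds. Ion channels are built from several subunits and open when the transmitter binds, as in nicotinic, GABA-A, glycine, NMDA and P2X receptors, whereas receptors with 7 membrane passes signal through G proteins, as in muscarinic, GABA-B, adrenergic, dopamine, P2Y and adenosine receptors. Many of these channels work only as an assembly of different subunits, so the transcript of a single subunit does not show that a channel is present. In liver, adrenergic, P2 and adenosine receptors are known to act on glucose release and bile secretion, and most glutamate, GABA and nicotinic subunits are best known from neurons.

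Libraries held 29798442 to 45572694 counted reads, and 3 reads in a library, the floor used here, equal 0.0713 to 0.112 CPM (reads relative to the library total after TMM scaling). Replicate libraries differed by more than sampling noise in every pair, so none was counted as a duplicate. The labels give no separate cultures for the replicates, and p-values therefore measure the spread between these libraries, which may be technical. All 12 genes of a list of hepatocyte markers were in the table, with a summed level of 63870 to 73100 CPM in untreated and 47380 to 71390 CPM in VPA-treated libraries. Of 10 neuron markers 4 were in the table, and their sum, mainly SYP, was 9.86 to 12.0 CPM in untreated and 29.2 to 53.0 CPM in treated libraries. SYN1, SNAP25, STMN2, NEFL, NEFM and ELAVL4 were not among the genes analysed. COL1A1 and PDGFRA, the 2 of 6 fibroblast markers in the table, summed to 0.125 to 0.538 CPM in untreated and 1.07 to 3.40 CPM in treated libraries. The neuron and fibroblast sums moved with VPA as many receptor genes did. TUBB3, unlike the other neuron markers, had a lower mean with VPA in low glucose (3.02 CPM in LG, 2.47 in LGV). The leukocyte sum, mainly LYZ (3 of 6 in the table), was 1069 to 1425 CPM in LG and 910 to 1064 in LGV. In HG it was 1241 to 1392 CPM, and in HGV 1436 to 1549. The endothelial sum (2 of 5) was 2.21 to 3.71 CPM across LG, HG and LGV and 3.83 to 4.85 in HGV. The part of these markers in the receptor results was not tested.

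Levels were compared between genes as RPKM, CPM divided by the length of the Ensembl canonical transcript in kilobases. The adrenergic receptor gene ADRA2C had the highest RPKM of the 39 genes in every group, with 48.0 ± 3.69 RPKM in LG, 31.8 ± 4.26 in HG, 28.4 ± 0.363 in LGV and 22.5 ± 2.33 in HGV (SD, n = 3). It supplied 56.1% of the summed RPKM of the 39 genes in LG and 44.7% in HG, and 39.1% in LGV and 30.4% in HGV. In LG, CHRNB1, P2RX4, ADORA2B, P2RX1 and P2RY11 followed with 4.34 to 7.58 RPKM, and the remaining 33 genes were below 1 RPKM. Genes at 1 RPKM or more numbered 6 in LG, 8 in HG, 13 in LGV and 14 in HGV. The summed RPKM was 85.5 ± 8.60 in LG, 71.2 ± 5.78 in HG, 72.6 ± 2.76 in LGV and 74.1 ± 4.51 in HGV. These sums overlapped between groups, except that the 3 LG libraries were all above the HG libraries (77.6 to 94.6 against 64.7 to 75.7) and above the LGV libraries (69.6 to 75.1).

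**Figure D1:**
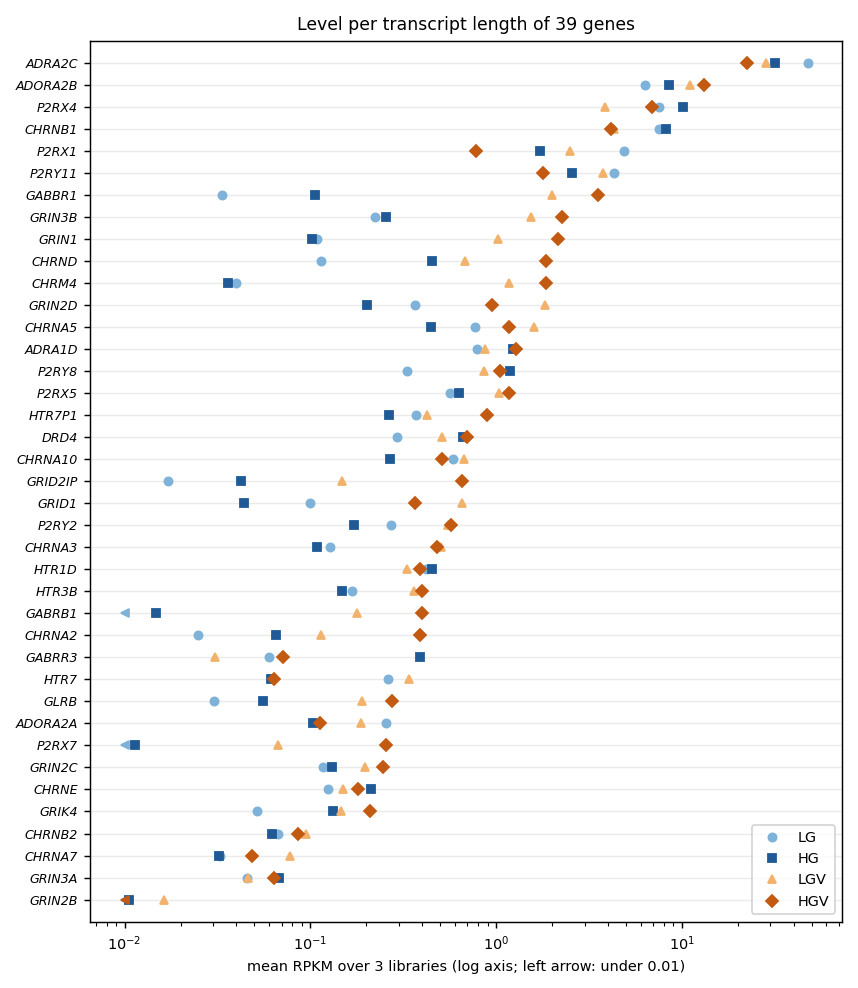
Level of each of the 39 genes, as mean RPKM over the 3 libraries of a group on a log axis, with 1 symbol per group and an arrow where the mean was under 0.01. ADRA2C lies at the top in all 4 groups, at 22.5 to 48.0 RPKM, and many genes that lie near the left edge in LG and HG lie further right in LGV and HGV.

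The promoters of 28 of the 39 genes were found in the RefSeq promoter table (GRCh38.p14), and the 250 bases before each start were searched on both strands. A single start per gene was used, which need not be its main or outermost start, and other starts were not searched. A GC box (GGGCGG) was present in 75% of these 28 windows and in 42.3% of all 27305 windows of that length. The cAMP response element TGACGTCA was in 3.6% and 1.8%, the TATA box TATAAA in 3.6% and 11.1%, and CCAAT in 35.7% and 33.0%. The median number of CpG dinucleotides was 17 in the receptor windows and 11 in all windows, and the median GC content was 69.6% and 58.0%. The 28 windows were thus richer in CpG than the typical window of that set. The 27305 windows were not limited to genes in the count table, and a comparison with those genes alone was not made. Given 5′ to 3′ on the strand of the gene are those of 3 genes with large differences between VPA-treated and untreated cells, GABBR1 (chr6:29628014-29628263, minus strand), CHRM4 (chr11:46391777-46392026, minus strand) and GRIN3B (chr19:1000169-1000418, plus strand), beside that of ADRA2C (chr4:3766135-3766384, plus strand), which was lower with VPA. Capitals mark GC boxes in either direction and, in GABBR1, the single cAMP response element among the 28 windows.
GABBR1: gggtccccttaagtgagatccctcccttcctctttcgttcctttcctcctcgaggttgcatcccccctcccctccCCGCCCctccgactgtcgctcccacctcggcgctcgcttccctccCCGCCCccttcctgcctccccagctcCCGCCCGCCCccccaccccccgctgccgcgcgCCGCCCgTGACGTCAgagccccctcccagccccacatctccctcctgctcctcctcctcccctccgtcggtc
CHRM4: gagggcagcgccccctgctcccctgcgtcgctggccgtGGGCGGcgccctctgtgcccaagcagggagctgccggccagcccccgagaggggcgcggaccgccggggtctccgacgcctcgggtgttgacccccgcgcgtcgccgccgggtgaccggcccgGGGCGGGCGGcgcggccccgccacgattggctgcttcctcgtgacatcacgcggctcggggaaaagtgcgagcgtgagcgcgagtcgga
GRIN3B: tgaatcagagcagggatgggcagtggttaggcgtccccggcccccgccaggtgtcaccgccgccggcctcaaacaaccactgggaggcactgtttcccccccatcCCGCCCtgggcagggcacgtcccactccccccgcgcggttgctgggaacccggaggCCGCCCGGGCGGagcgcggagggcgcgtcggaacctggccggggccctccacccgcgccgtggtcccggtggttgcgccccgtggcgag
ADRA2C: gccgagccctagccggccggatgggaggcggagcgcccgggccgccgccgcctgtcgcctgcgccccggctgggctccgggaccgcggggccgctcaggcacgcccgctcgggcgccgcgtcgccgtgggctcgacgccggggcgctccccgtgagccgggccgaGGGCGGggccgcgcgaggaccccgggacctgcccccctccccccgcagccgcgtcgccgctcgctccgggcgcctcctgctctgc
The searches found 5 GC boxes in GABBR1, 3 each in CHRM4 and GRIN3B and 1 in ADRA2C. The window of ADRA2C had 44 CpG, that of CHRM4 38, that of GRIN3B 28 and that of GABBR1 20. CHRNB1 and P2RX4, also lower with VPA, had 10 and 27. A link between CpG content and the direction of the VPA response was not tested.

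Receptor expression with and without VPA was compared in each medium with edgeR's quasi-likelihood test, and a gene was called at an FDR of 0.05 or less after Benjamini-Hochberg adjustment over all genes tested. In high glucose (HGV against HG), 35 members were tested, of which 20 were higher, 5 were lower and 10 were not called. Of all 16188 genes tested 25.8% were called higher and 20.2% lower, so 46.1% were called in all. The median log2 fold change was 0.92 over the members and 0.02 over all genes. In low glucose (LGV against LG), 35 were tested, with 18 higher, 4 lower and 13 not called, against 21.7% higher and 19.9% lower of 15944 genes, or 41.6% in all. Here the median was 0.89 over the members and -0.01 over all genes.

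The count table had been limited to genes with an average of at least 10 reads over the 12 libraries, and a gene that is nearly absent without VPA could enter it only through the treated libraries. CHRM4, CHRNA2, CHRNA7, GABRB1, GLRB, GRID2IP and P2RX7 were such genes, with a mean below 10 reads over the untreated libraries, so the counts above lean towards higher calls by construction. Among the other 32 members, 29 were tested in high glucose with 14 higher and 5 lower (22.7% and 21.3% of 15331 genes limited in the same way), and 31 were tested in low glucose with 14 higher and 4 lower (19.0% and 20.8% of 15254 genes). Their median log2 fold changes were 0.67 in high and 0.77 in low glucose, against -0.01 and -0.03 for all genes so limited. This limit does not remove the lean in full. A member with little more than 10 untreated reads, such as GABBR1 (10.7) or CHRNA3 (12.2), could have left the table had it fallen with VPA. The genes so limited were not matched to the members by level. The same holds wherever this limit is used below.

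The VPA comparisons of both media use separate libraries. Of the 31 members tested in both, 15 were called higher in both, 4 were called lower in both, 4 were called in a single medium and 8 in neither, and no member was called in opposite directions. Such overlaps were not counted over all genes, so no share over all genes stands beside these counts. The 15 were ADORA2B, CHRM4, CHRNA3, CHRNA5, CHRND, GABBR1, GLRB, GRID1, GRID2IP, GRIN1, GRIN2D, GRIN3B, HTR3B, P2RX5 and P2RY2. Among them, CHRM4, GLRB and GRID2IP were in the table through the treated libraries, as said above. The 4 lower ones were ADRA2C, CHRNB1, P2RX1 and P2RX4. These 4 were among the 5 genes with the highest RPKM in LG, and the remaining gene of the 5, ADORA2B, was called higher in both media.

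**Figure D2:**
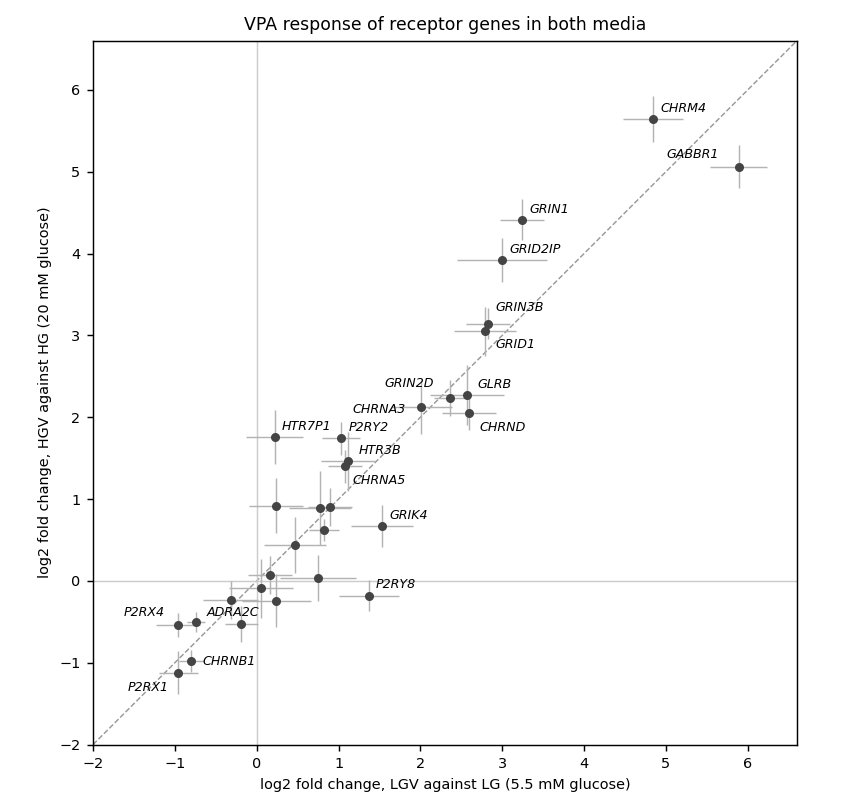
Log2 fold change with VPA in low glucose (horizontal axis) and in high glucose (vertical axis) for the 31 genes tested in both, with bars of 1 standard error and a dashed line of equal change. GABBR1 and CHRM4 lie farthest from zero, with values of 4.84 to 5.89, and ADRA2C, CHRNB1, P2RX1 and P2RX4 lie in the lower left. CHRM4, GLRB and GRID2IP were in the count table through the treated libraries.

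GABA, the main inhibitory transmitter of the brain, acts on channels (GABA-A) and on a G protein-coupled pair (GABA-B), and glycine acts on a related channel. GABBR1 (chromosome 6, 29523406 to 29601753 on GRCh37, minus strand) encodes the GABA-binding subunit of the GABA-B receptor. Its libraries held 0.150, 0.200 and 0.102 CPM in the LG libraries, 0.571, 0.538 and 0.336 in HG, 12.2, 6.37 and 8.78 in LGV and 18.1, 11.8 and 18.3 in HGV. All 6 VPA-treated libraries were far above all 6 untreated ones. GABBR1 rose with VPA in high glucose (log2 fold change 5.06, standard error 0.26, FDR 3.5e-08) and in low glucose (log2 fold change 5.89, standard error 0.35, FDR 3.04e-08). It was also higher in HG than in LG (log2 fold change 1.66, standard error 0.45, FDR 0.0111) and in HGV than in LGV (log2 fold change 0.80, standard error 0.21, FDR 0.00536), although HGV and LGV libraries overlapped. In RPKM it moved from rank 32 of 39 in LG to rank 7 in LGV, and from rank 25 in HG to rank 5 in HGV. GABBR2, the partner subunit needed at the membrane, was not analysed here. Exons of the neighbouring genes OR2I1P and UBD overlap 8.5% of the exonic length of GABBR1.

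GABRB1 encodes a beta subunit of GABA-A receptors. It had 0 reads in each LG library, which allows up to 3 reads per library, and 3 reads in all in HG, whereas LGV held 0.420, 0.195 and 0.427 CPM and HGV 0.920, 0.785 and 0.618 CPM. The ratio of HGV to HG was 25.9 (95% exact Poisson interval 8.58 to 128, which covers counting error only), and LGV was at least 3.95-fold higher than the LG floor of 3 reads per library. GABRB1 was in the table through the treated libraries, which were all above the untreated ones. HGV was higher than LGV (log2 fold change 1.11, standard error 0.39, FDR 0.0306), a call lost without HGV replicate 1 (FDR 0.102), LGV replicate 2 (0.147) or LGV replicate 3 (0.0527), and with the Wald test of DESeq2 (0.0612). GLRB, the beta subunit that anchors glycine receptors to the synaptic scaffold, stayed under 1 CPM and rose with VPA from 0.168 ± 0.0246 to 0.834 ± 0.167 CPM in high glucose (log2 fold change 2.27, standard error 0.37, FDR 0.000307) and from 0.0922 ± 0.0152 to 0.576 ± 0.0930 CPM in low glucose (log2 fold change 2.57, standard error 0.45, FDR 0.000371).

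GABRR3, which encodes a rho subunit of GABA receptors, had the opposite pattern. It was at 0.0748, 0.0749 and 0.408 CPM in the LG libraries, 1.36, 1.26 and 1.01 in HG, 0.180, 0 and 0.107 in LGV and 0.215, 0.333 and 0.118 in HGV. The 3 HG libraries were thus above the 9 others, which all lay at or below 0.408 CPM. GABRR3 was higher in HG than in LG (log2 fold change 2.62, standard error 0.45, FDR 0.000452) and fell with VPA in high glucose (log2 fold change -2.39, standard error 0.37, FDR 0.000185). It had too few reads for a test in the other 2 comparisons. Both of its tested comparisons use the HG libraries.

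Ionotropic glutamate receptors include NMDA receptors, which need the GRIN1 subunit together with GRIN2 or GRIN3 subunits, as well as kainate and delta receptors. Of 7 genes of this class tested in high glucose, 4 rose with VPA and none fell (25.8% and 20.2% of all genes tested), and of 8 tested in low glucose 5 rose and none fell (21.7% and 19.9%). All of them had a mean of at least 10 reads over the untreated libraries. For GRIN2B, GRID1, GRIN3A, GRIN1, GRIK4 and GRIN2C that mean was only 10.0 to 18.3. A gene at such a level that fell strongly with VPA could have been left out of the table. The absence of lower calls can therefore not be read as a result about the class. The summed RPKM of the class was 1.02 ± 0.229 in LG and 0.944 ± 0.0530 in HG, and 5.46 ± 0.165 in LGV and 6.26 ± 0.380 in HGV. No treated library overlapped an untreated one in this sum.

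GRIN1 (chromosome 9, 140032798 to 140063208, plus strand), the subunit that every NMDA receptor contains, was at 0.486, 0.474 and 0.460 CPM in the LG libraries, 0.666, 0.389 and 0.280 in HG, 4.95, 4.87 and 3.60 in LGV and 8.80, 10.2 and 9.21 in HGV. It rose with VPA by a log2 fold change of 4.41 in high glucose (FDR 6.48e-08) and 3.24 in low glucose (FDR 4.25e-07). Its HG and LG libraries overlapped, while each HGV library was above each LGV library (log2 fold change 1.06, standard error 0.18, FDR 0.000177). In the test of the interaction of glucose and VPA, which is the difference between both VPA responses, GRIN1 had an unadjusted p under 0.05 and was not called after adjustment.

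GRIN2D, a subunit with slow channel kinetics, was at 2.39, 1.95 and 1.69 CPM in the LG libraries, 1.43, 1.05 and 0.868 in HG, 9.93, 10.6 and 9.95 in LGV and 6.01, 5.02 and 4.74 in HGV. GRIN2D rose with VPA in high (log2 fold change 2.24, standard error 0.22, FDR 4.88e-06) and low glucose (log2 fold change 2.36, standard error 0.20, FDR 5.11e-07). In contrast to GRIN1, it was lower in high than in low glucose, both with VPA (log2 fold change -0.97, standard error 0.17, FDR 0.000195) and without it (log2 fold change -0.82, standard error 0.27, FDR 0.0343), in each case with no overlap between libraries. The call without VPA was lost without HG replicate 2 or 3 or LG replicate 1 or 2, with an FDR up to 0.199, and also with upper quartile factors (0.0595) and with scaling by library size only (0.0719).

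GRIN3B, a glycine-binding NMDA subunit, was at 1.01, 0.524 and 0.664 CPM in the LG libraries, 0.824, 0.807 and 0.896 in HG, 5.10, 4.77 and 5.31 in LGV and 7.24, 8.39 and 6.68 in HGV. VPA-treated cells had more GRIN3B transcript in high (log2 fold change 3.14, standard error 0.19, FDR 1.03e-07) and low glucose (log2 fold change 2.83, standard error 0.27, FDR 1.39e-06) with no overlap. The smaller difference between HGV and LGV (log2 fold change 0.54, standard error 0.17, FDR 0.0188) was lost without HGV replicate 2 or LGV replicate 2 or 3 (FDR 0.0544 to 0.0706). The other NMDA subunit genes, GRIN2B, GRIN2C and GRIN3A, were called in no comparison and their group means lay at 0.183 to 1.06 CPM.

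GRID1, a delta receptor that binds synaptic organiser proteins, was at 1.08, 0.399 and 0.357 CPM in the LG libraries, 0.285, 0.359 and 0.168 in HG, 2.73, 5.16 and 4.14 in LGV and 2.08, 2.33 and 2.32 in HGV. GRID1 rose with VPA in high (log2 fold change 3.05, standard error 0.30, FDR 4.6e-06) and low glucose (log2 fold change 2.79, standard error 0.38, FDR 4.15e-05), and was lower in HGV than in LGV (log2 fold change -0.85, standard error 0.24, FDR 0.00851), which was lost without LGV replicate 2 (FDR 0.0709). GRID2IP, the delphilin gene, was at 0.0374, 0.0998 and 0.102 CPM in the LG libraries, 0.159, 0.209 and 0.224 in HG, 1.11, 0.487 and 0.480 in LGV and 3.07, 2.81 and 3.32 in HGV. Treated libraries again lay above all untreated ones, and HGV lay above LGV. The treated libraries were also the reason that this gene was in the table. GRID2IP rose with VPA in high (log2 fold change 3.92, standard error 0.27, FDR 2.9e-07) and low glucose (log2 fold change 3.00, standard error 0.55, FDR 0.000487), and HGV exceeded LGV (log2 fold change 2.12, standard error 0.30, FDR 4.23e-05). GRIK4, a kainate receptor subunit, was at 0.374, 0.275 and 0.255 CPM in the LG libraries, 0.697, 0.957 and 0.644 in HG, 1.11, 0.812 and 0.640 in LGV and 1.32, 1.26 and 1.09 in HGV. It rose with VPA in low glucose (log2 fold change 1.53, standard error 0.38, FDR 0.00457) and missed the threshold in high glucose (log2 fold change 0.67, FDR 0.0552), where all treated libraries were still above the untreated ones. It was higher in HG than in LG (log2 fold change 1.39, standard error 0.36, FDR 0.00959), a call lost without HG replicate 2 (FDR 0.0596).

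**Figure D3:**
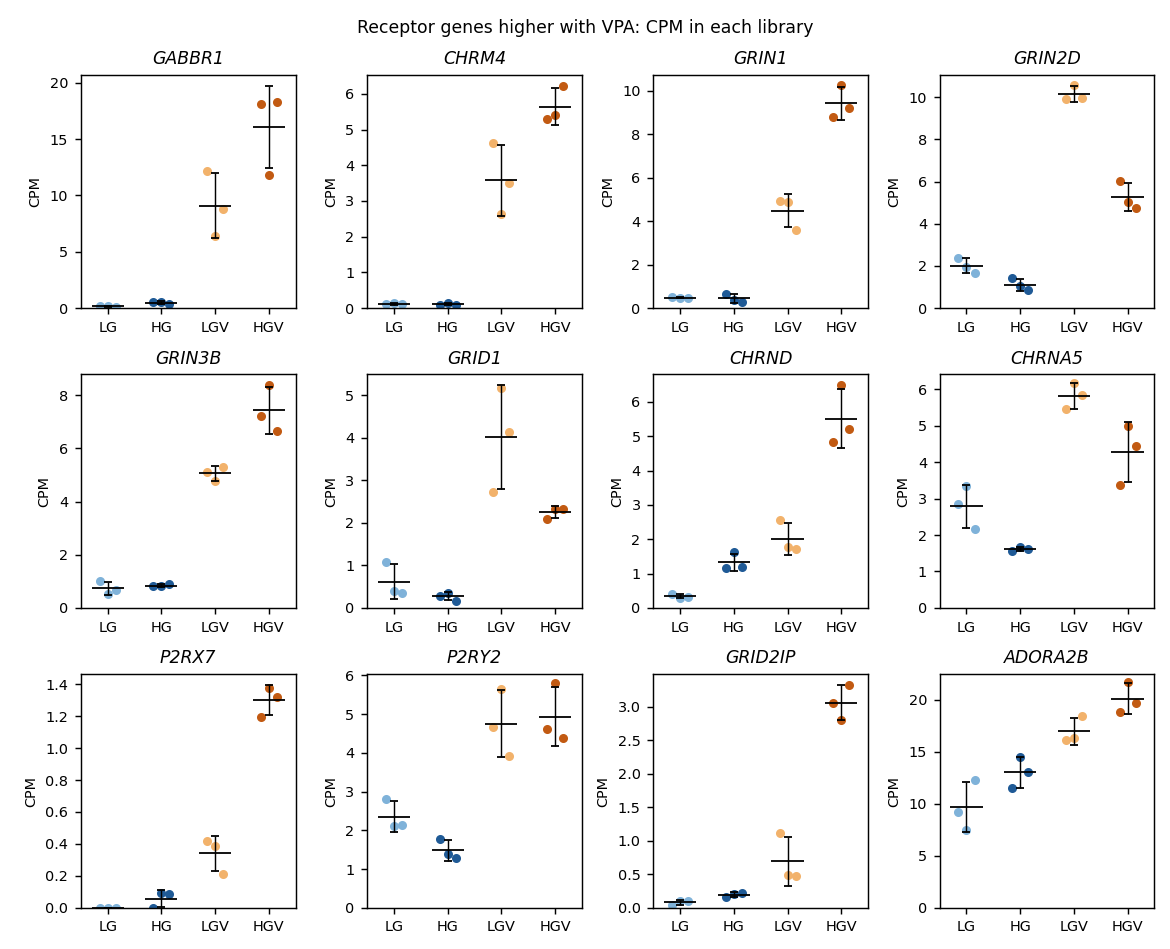
CPM in each library for 12 genes that rose with VPA, 1 panel per gene with its own linear axis from zero. Points are libraries, lines are group means and bars are 1 SD (n = 3). In GABBR1 and CHRM4 the untreated libraries lie close to zero, at up to 0.571 CPM, and GRIN2D shows LGV above HGV while GRIN1 and GRID2IP show HGV above LGV.

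Acetylcholine acts on nicotinic channels, made of 5 subunits, and on muscarinic G protein-coupled receptors. Nicotinic subunits of muscle type (CHRNB1, CHRND, CHRNE) and of neuronal type (CHRNA2, CHRNA3, CHRNA5, CHRNA7, CHRNA10, CHRNB2) were both in the table. Of 8 nicotinic genes tested in high glucose, 5 rose with VPA and 1 fell, and of 8 in low glucose 4 rose and 1 fell, beside the same shares of all genes as for the glutamate receptors (25.8% and 20.2%, 21.7% and 19.9%). CHRNA2 in high glucose and CHRNA7 in low glucose had a mean below 10 reads over the untreated libraries and were in the table through the treated ones. Without that gene 4 rose and 1 fell of 7 in high glucose, and 3 rose and 1 fell of 7 in low glucose. CHRNB1 supplied most of the RPKM of the class in untreated cells, with 7.58 ± 0.393 of 9.43 ± 0.677 in LG. The class sum was 9.88 ± 0.940 in HG, 8.21 ± 0.636 in LGV and 8.92 ± 0.556 in HGV.

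CHRNB1, the beta subunit of the muscle receptor, was at 20.6, 18.8 and 18.9 CPM in the LG libraries, 20.8, 23.6 and 18.9 in HG, 12.7, 9.78 and 10.6 in LGV and 11.1, 11.5 and 9.47 in HGV. All treated libraries were below all untreated ones, and CHRNB1 fell with VPA in high (log2 fold change -0.98, standard error 0.13, FDR 7.94e-05) and low glucose (log2 fold change -0.80, standard error 0.15, FDR 0.000623). CHRND, the delta subunit of the same receptor, moved the other way and was at 0.411, 0.299 and 0.306 CPM in the LG libraries, 1.17, 1.61 and 1.20 in HG, 2.55, 1.79 and 1.71 in LGV and 4.84, 6.49 and 5.21 in HGV. The groups were ordered LG, HG, LGV and HGV with no overlap. It rose with VPA in high (log2 fold change 2.05, standard error 0.21, FDR 6.06e-06) and low glucose (log2 fold change 2.59, standard error 0.33, FDR 1.9e-05), and it was higher in high glucose without (log2 fold change 2.01, standard error 0.33, FDR 0.000281) and with VPA (log2 fold change 1.44, standard error 0.22, FDR 7.85e-05). CHRNE, the epsilon subunit of the adult muscle receptor, was called in no comparison. Exons of C17orf107 on the opposite strand cover 48.6% of its exonic length, and whether reads were counted by strand is not stated.

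CHRNA5 and CHRNA3 are neighbouring neuronal subunit genes on chromosome 15 (78857862 to 78887611, plus strand, and 78885394 to 78913637, minus strand), whose exons overlap by 198 bases. A long non-coding RNA gene on the opposite strand covers 23.0% of the exonic length of CHRNA5. Whether reads were counted by strand is not stated. CHRNA5 was at 2.84, 3.34 and 2.17 CPM in the LG libraries, 1.55, 1.68 and 1.62 in HG, 5.46, 6.17 and 5.84 in LGV and 3.37, 4.99 and 4.44 in HGV. CHRNA5 rose with VPA in high (log2 fold change 1.4, standard error 0.20, FDR 0.000115) and low glucose (log2 fold change 1.08, standard error 0.21, FDR 0.000955) without overlap. It was lower in HG than in LG (log2 fold change -0.76, standard error 0.25, FDR 0.0302), which was lost when any library other than LG replicate 3 was left out (FDR up to 0.121). It was also lost with the replicate number as a block (0.0514), with upper quartile factors (0.0538) and with scaling by library size only (0.0617). CHRNA3 was at 0.449, 0.524 and 0.179 CPM in the LG libraries, 0.380, 0.299 and 0.308 in HG, 1.71, 1.49 and 1.39 in LGV and 1.81, 1.09 and 1.44 in HGV, and rose in high (log2 fold change 2.12, standard error 0.32, FDR 0.000145) and low glucose (log2 fold change 2.01, standard error 0.37, FDR 0.000484).

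CHRNA2, a neuronal alpha subunit, was at 0.150, 0.0749 and 0.0766 CPM in the LG libraries, 0.127, 0.389 and 0.280 in HG, 0.600, 0.357 and 0.427 in LGV and 0.920, 1.26 and 2.53 in HGV. HGV replicate 3 was the highest of these libraries. CHRNA2 rose with VPA in high glucose (log2 fold change 2.53, standard error 0.46, FDR 0.000689) and was higher in HGV than in LGV (log2 fold change 1.73, standard error 0.39, FDR 0.00181). It was in the table through the treated libraries and had too few reads for a test in the other comparisons. CHRNA10, a subunit known from hair cells, was at 1.46, 1.35 and 0.613 CPM in the LG libraries, 0.539, 0.359 and 0.672 in HG, 1.14, 1.30 and 1.49 in LGV and 1.29, 1.02 and 0.676 in HGV. Its differences were small, with HGV above HG (log2 fold change 0.92, standard error 0.34, FDR 0.0443), lost without HGV replicate 1 or 2 or HG replicate 1 or 2 (FDR up to 0.162) and with DESeq2 (0.0777), and HG below LG (log2 fold change -1.07, standard error 0.36, FDR 0.0379), lost without any library other than LG replicate 3 (FDR up to 0.180). The latter was also lost with upper quartile factors (0.0590), library size only (0.0683) and DESeq2 (0.0622). CHRNA7, which forms channels of a single subunit type, had group means of 0.198 to 0.480 CPM and was called in LGV against LG (log2 fold change 1.28, standard error 0.46, FDR 0.0358), but not without LG replicate 1 (FDR 0.0781) or 2 (0.119), nor with DESeq2 (0.125). A near-identical partial copy of it, CHRFAM7A, exists in the genome, so its counts are uncertain. CHRNB2, the partner of many neuronal alpha subunits, was called in no comparison, with group means of 0.366 to 0.552 CPM.

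CHRM4, the M4 muscarinic receptor that inhibits adenylyl cyclase (chromosome 11, 46405339 to 46413326, minus strand), was the one muscarinic gene in the table. It was at 0.112, 0.150 and 0.102 CPM in the LG libraries, 0.0951, 0.149 and 0.0840 in HG, 4.62, 2.63 and 3.50 in LGV and 5.30, 5.40 and 6.24 in HGV. All untreated libraries were at or below 0.150 CPM and all treated ones at or above 2.63 CPM. This gene was in the table through the treated libraries, so a rise with VPA was favoured by the way the table was filtered. CHRM4 rose with VPA in high (log2 fold change 5.64, standard error 0.28, FDR 3.1e-08) and low glucose (log2 fold change 4.84, standard error 0.37, FDR 1.99e-07). Each HGV library was above each LGV library (log2 fold change 0.63, standard error 0.21, FDR 0.0225), a call lost without HGV replicate 3 (FDR 0.0775) or LGV replicate 2 (0.126) or 3 (0.0768). Its exons share 49 bases, 1.6% of their length, with MDK on the opposite strand.

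Among monoamine receptors, the most abundant member fell with VPA. ADRA2C (chromosome 4, 3768075 to 3770253, plus strand), an alpha-2 adrenergic receptor that inhibits adenylyl cyclase, was at 112, 97.4 and 99.1 CPM in the LG libraries, 58.1, 70.6 and 75.8 in HG, 60.2, 60.7 and 61.7 in LGV and 43.3, 53.2 and 48.2 in HGV. The LG libraries were the highest and the HGV libraries the lowest. ADRA2C fell with VPA in high (log2 fold change -0.50, standard error 0.12, FDR 0.00562) and low glucose (log2 fold change -0.74, standard error 0.11, FDR 9.01e-05), and was lower in high glucose without (log2 fold change -0.57, standard error 0.13, FDR 0.00442) and with VPA (log2 fold change -0.35, standard error 0.12, FDR 0.0234). The last of these was lost without HGV replicate 1 or 3 or LGV replicate 2 or 3 (FDR 0.0609 to 0.117), with upper quartile factors (0.0808) and with library size only (0.0665). ADRA1D, an alpha-1 adrenergic receptor coupled to calcium release, was called in no comparison, with group means of 2.33 to 3.78 CPM.

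Among serotonin receptor genes, HTR7, which stimulates adenylyl cyclase, was at 1.08, 1.05 and 0.587 CPM in the LG libraries, 0.380, 0.0897 and 0.168 in HG, 0.540, 1.14 and 1.87 in LGV and 0.368, 0.119 and 0.176 in HGV. High-glucose libraries were below all low-glucose libraries both without (log2 fold change -2.06, standard error 0.44, FDR 0.00251) and with VPA (log2 fold change -2.47, standard error 0.49, FDR 0.000713), and the VPA response in low glucose was not called (log2 fold change 0.42, FDR 0.445). Its processed pseudogene HTR7P1, which is on chromosome 12, was at 0.636, 0.424 and 0.434 CPM in the LG libraries, 0.507, 0.269 and 0.280 in HG, 0.570, 0.649 and 0.480 in LGV and 1.04, 1.14 and 1.38 in HGV. Here the HGV libraries were above all others. HTR7P1 rose with VPA in high glucose (log2 fold change 1.76, standard error 0.33, FDR 0.000812) and was higher in HGV than in LGV (log2 fold change 1.05, standard error 0.32, FDR 0.0127), the latter lost without HGV replicate 3 (FDR 0.0613) or LGV replicate 3 (0.0714). Since the pseudogene was copied from HTR7, short reads of the 2 could be confused, and both are uncertain.

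HTR3B, a subunit of the serotonin-gated channel, was at 0.636, 1.12 and 0.460 CPM in the LG libraries, 0.856, 0.478 and 0.616 in HG, 1.41, 1.69 and 1.71 in LGV and 1.26, 2.76 and 1.29 in HGV. HTR3B rose with VPA in high (log2 fold change 1.46, standard error 0.36, FDR 0.00533) and low glucose (log2 fold change 1.11, standard error 0.33, FDR 0.0151), the latter lost without LGV replicate 3 (FDR 0.0527) or LG replicate 1 (0.0708). HTR3A, with which it forms channels, was not analysed here. DRD4, a dopamine receptor that inhibits adenylyl cyclase, was higher in HG than in LG (0.934 ± 0.0980 against 0.410 ± 0.307 CPM, log2 fold change 1.13, standard error 0.40, FDR 0.0462). That call was lost when any library other than LG replicate 2 was left out (FDR up to 0.177), with DESeq2 (0.0771) and with no filter on low counts (0.0504). HTR1D, another inhibitory serotonin receptor, was called in no comparison, with group means of 1.11 to 1.51 CPM.

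Extracellular ATP opens P2X channels and activates P2Y receptors, and adenosine, its breakdown product, acts on adenosine receptors. P2RX4 and P2RX1 were the main P2X genes. P2RX1, a fast-desensitising channel, was at 18.7, 9.13 and 11.3 CPM in the LG libraries, 4.53, 5.44 and 3.72 in HG, 7.95, 6.40 and 5.55 in LGV and 2.27, 2.71 and 1.26 in HGV. It fell with VPA in high (log2 fold change -1.12, standard error 0.26, FDR 0.00333) and low glucose (log2 fold change -0.96, standard error 0.24, FDR 0.0053). It was also lower in high glucose, both without (log2 fold change -1.48, standard error 0.24, FDR 0.000217) and with VPA (log2 fold change -1.68, standard error 0.25, FDR 5.04e-05), and none of these 4 comparisons had overlapping libraries. P2RX1 moved from rank 5 of 39 in LG to rank 17 in HGV by RPKM.

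P2RX4, a calcium-permeable channel found mainly in lysosomes, was at 16.0, 8.63 and 15.3 CPM in the LG libraries, 16.3, 19.7 and 17.4 in HG, 9.84, 5.26 and 5.23 in LGV and 10.6, 14.9 and 11.1 in HGV. It fell with VPA in high glucose (log2 fold change -0.54, standard error 0.15, FDR 0.011), a call lost without HGV replicate 1 (FDR 0.0552) and in a fit of all 12 libraries (0.0652). It fell in low glucose too (log2 fold change -0.96, standard error 0.27, FDR 0.0107), where the libraries overlapped and the call was lost without LGV replicate 3 (FDR 0.0653) or LG replicate 1 (0.0771) and with library size only (0.0684). With VPA it was higher in high glucose (log2 fold change 0.83, standard error 0.22, FDR 0.00578), in contrast to P2RX1.

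P2RX5 and P2RX7 rose. P2RX5 was at 1.08, 1.10 and 1.30 CPM in the LG libraries, 1.01, 1.68 and 1.20 in HG, 2.28, 1.62 and 2.54 in LGV and 2.36, 2.42 and 2.50 in HGV, with no overlap between treated and untreated libraries of either medium. It rose in high (log2 fold change 0.90, standard error 0.23, FDR 0.00616) and low glucose (log2 fold change 0.89, standard error 0.27, FDR 0.0151), the latter lost without LGV replicate 3 (FDR 0.0887) or LG replicate 1 (0.0579). A read-through gene that joins P2RX5 to TAX1BP3 covers 43.2% of its exonic length, so its counts are uncertain. P2RX7, the channel that triggers inflammasome signalling in immune cells, had 0 reads in each LG library and 6 reads in all in HG, and was at 0.420, 0.390 and 0.213 CPM in LGV and 1.20, 1.38 and 1.32 CPM in HGV. The ratio of HGV to HG was 21.9 (95% exact Poisson interval 9.83 to 60.8), LGV was at least 3.88-fold higher than the LG floor, and HGV was higher than LGV (log2 fold change 1.92, standard error 0.35, FDR 0.000344). A long non-coding RNA gene on the opposite strand covers 33.0% of the exonic length of P2RX7, which was in the table through the treated libraries. Over the class, the summed RPKM was 13 ± 3.90 in LG, 12.5 ± 1.41 in HG, 7.45 ± 2.00 in LGV and 9.15 ± 1.56 in HGV.

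P2RY2, a receptor for ATP and UTP that couples to calcium release, was at 2.81, 2.12 and 2.14 CPM in the LG libraries, 1.77, 1.38 and 1.29 in HG, 4.68, 5.65 and 3.92 in LGV and 4.63, 5.80 and 4.38 in HGV. Treated libraries were above untreated ones in both media. P2RY2 rose with VPA in high (log2 fold change 1.74, standard error 0.20, FDR 2.14e-05) and low glucose (log2 fold change 1.03, standard error 0.23, FDR 0.00213). A non-coding RNA gene on the same strand covers 37.5% of its exonic length. P2RY11, an ATP receptor, was at 8.94, 8.23 and 6.13 CPM in the LG libraries, 4.95, 4.10 and 4.79 in HG, 5.52, 6.79 and 7.85 in LGV and 3.68, 2.14 and 3.82 in HGV, and was lower in high glucose without (log2 fold change -0.73, standard error 0.20, FDR 0.0117) and with VPA (log2 fold change -1.09, standard error 0.23, FDR 0.00096). The former was lost without HG replicate 2 (FDR 0.0533) or 3 (0.0615) or LG replicate 1 (0.0908). The read-through gene PPAN-P2RY11 covers 53.6% of the exonic length of P2RY11, so its level is uncertain.

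P2RY8, a G protein-coupled receptor grouped with the P2Y family by sequence, was at 1.38, 0.549 and 2.32 CPM in the LG libraries, 4.31, 5.47 and 5.38 in HG, 4.17, 3.70 and 3.10 in LGV and 3.89, 5.56 and 3.91 in HGV. The LG libraries were below the 9 others. P2RY8 was higher in HG than in LG (log2 fold change 1.86, standard error 0.33, FDR 0.000602) and rose with VPA in low glucose (log2 fold change 1.37, standard error 0.37, FDR 0.00846), the latter lost without LG replicate 1 (FDR 0.0528), but was not called with VPA in high glucose (log2 fold change -0.18, FDR 0.47). All comparisons with LG share those 3 libraries, which ranged from 0.549 to 2.32 CPM. P2RY8 lies in a pseudoautosomal region, so its sequence is also present on the Y chromosome.

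ADORA2B, the low-affinity adenosine receptor that stimulates adenylyl cyclase, was the second most abundant gene by RPKM in both treated groups. Its libraries held 9.20, 7.51 and 12.3 CPM in the LG libraries, 11.5, 14.5 and 13 in HG, 16.1, 16.3 and 18.5 in LGV and 18.8, 21.7 and 19.7 in HGV. It rose with VPA in high (log2 fold change 0.62, standard error 0.13, FDR 0.00171) and low glucose (log2 fold change 0.82, standard error 0.18, FDR 0.00242) with no overlap. ADORA2A, the related high-affinity receptor, was called in no comparison, with group means of 0.263 to 0.646 CPM, and a read-through gene with SPECC1L covers 56.8% of its exonic length.

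High and low glucose were compared first without VPA. Of 32 members tested in HG against LG, 6 were higher (CHRND, DRD4, GABBR1, GABRR3, GRIK4 and P2RY8) and 7 were lower (ADRA2C, CHRNA10, CHRNA5, GRIN2D, HTR7, P2RX1 and P2RY11). Over all 15452 genes tested 12.0% were higher and 12.7% lower, or 24.7% in all, and 13 of 32 members were called. With upper quartile factors or with library size only, 7 were higher and 4 lower. The count was unsteady, and fell to 6 without HG replicate 2 and to 8 without HG replicate 3 or LG replicate 1. Without LG replicate 3 it was 18. The median log2 fold change was 0.14 over the members and 0.01 over all genes.

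In the VPA-treated cells (HGV against LGV), 38 members were tested, of which 11 were higher and 6 lower. Over 16208 genes the shares were 21.2% higher and 19.5% lower, or 40.7% in all. Limited to the 31 members with a mean of at least 10 reads over the untreated libraries, 6 were higher and 6 lower. Of all 15271 genes so limited, 3146 were higher and 3097 lower. Of the 31 members tested in both glucose comparisons, which use separate libraries, CHRND and GABBR1 were called higher in both. ADRA2C, GRIN2D, HTR7, P2RX1 and P2RY11 were called lower in both, no member was called in opposite directions, and 14 were called in neither. This overlap, too, was not counted over all genes. ADRA2C, CHRND, GABBR1, GRIN2D and P2RX1 were called in all 4 comparisons between pairs of groups.

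**Figure D4:**
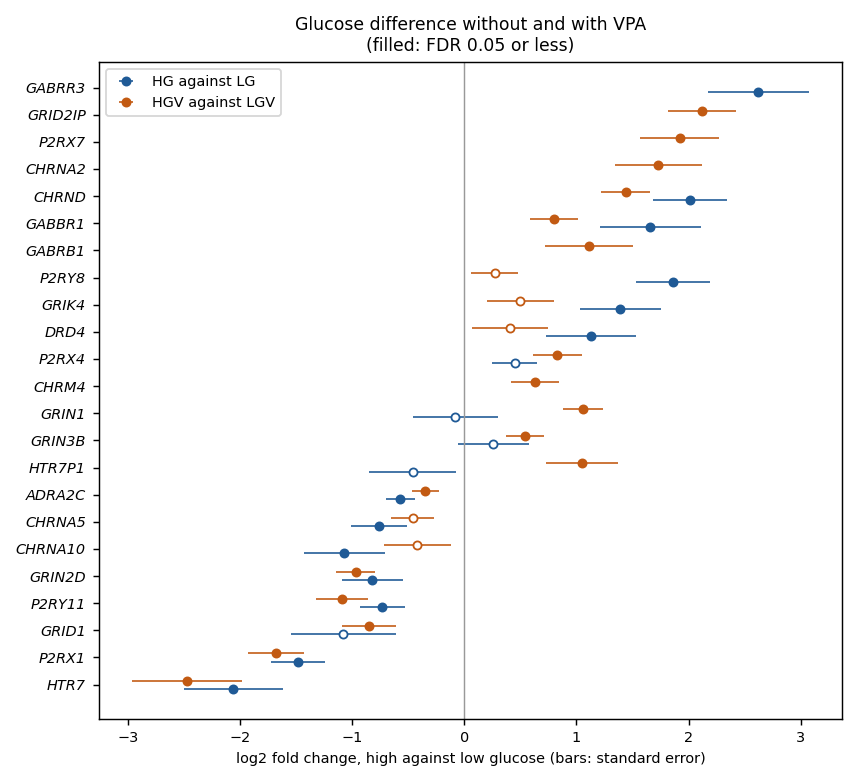
Log2 fold change of high against low glucose, without VPA (blue) and with VPA (orange), for the genes called in at least 1 of these comparisons, with bars of 1 standard error and filled points at an FDR of 0.05 or less. HTR7 and P2RX1 lie on the lower side in both comparisons, at -2.06 and -2.47 and at -1.48 and -1.68, and CHRND lies on the higher side in both, at 2.01 and 1.44.

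**Figure D5:**
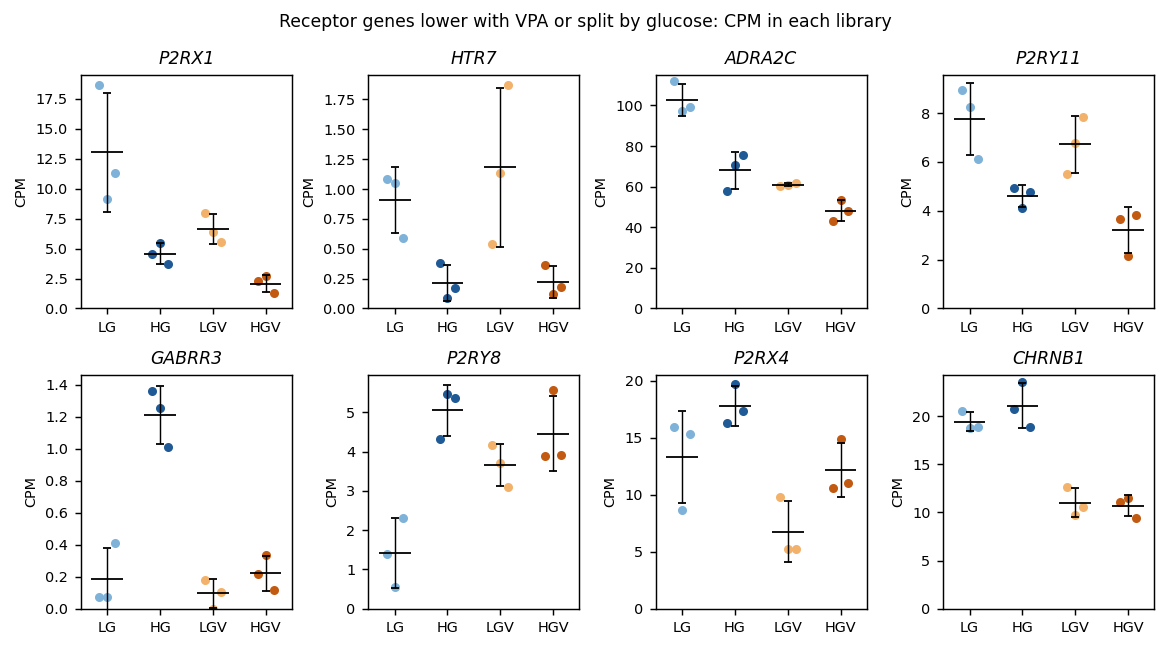
CPM in each library for 8 genes that were lower with VPA or differed with glucose, 1 panel per gene with its own linear axis from zero. Points are libraries, lines are group means and bars are 1 SD (n = 3). P2RX1 and ADRA2C are highest in LG and lowest in HGV, and GABRR3 is high in the HG libraries, at 1.01 to 1.36 CPM, and at or below 0.408 CPM elsewhere.

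Whether the VPA response differed between media was tested as an interaction over all 12 libraries. No member of 39 was called with edgeR's quasi-likelihood test, while 0.0427% of all 16389 genes were, 0.0244% with a higher and 0.0183% with a lower response in high glucose. At an unadjusted p under 0.05 there were 4 members, GRIN1, HTR7P1, P2RY2 and P2RY8. The lowest FDR was 0.154 for P2RY8, with a log2 difference of -1.54 between the response in high and in low glucose. The likelihood ratio test of edgeR and the Wald test of DESeq2 each called P2RY8 and no other member (FDR 0.0452 and 0.0287), and so did the quasi-likelihood test without LG replicate 3 (FDR 0.0208). A VPA response called in a single medium, as for GRIK4, P2RY8, CHRNA10 and HTR7P1, was therefore not shown to differ between media.

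Genes that make, transport or break down the same transmitters were examined as a list of 71, of which 47 were in the table. Of 46 tested in HGV against HG, 15 were higher, 15 lower and 16 not called, with a median log2 fold change of 0.04, where the shares over all genes were 25.8% higher and 20.2% lower and their median 0.02. Limited to the 45 with a mean of at least 10 reads over the untreated libraries, 14 were higher and 15 lower (22.7% and 21.3% of all genes so limited). Vesicular glutamate transporter genes were among the largest increases. SLC17A7 went from 0.307 ± 0.152 to 10.2 ± 0.918 CPM (log2 fold change 5.03, standard error 0.26, FDR 3.5e-08) and SLC17A8 from 0.113 ± 0.0991 to 1.39 ± 0.0815 CPM (log2 fold change 3.61, standard error 0.44, FDR 3.06e-05). SLC17A8 had a mean below 10 reads over the untreated libraries and was in the table through the treated ones. ACHE, the enzyme that hydrolyses acetylcholine, rose from 0.737 ± 0.161 to 14.3 ± 1.35 CPM (log2 fold change 4.28, standard error 0.19, FDR 1.88e-08), and ENTPD8, an ectonucleotidase of liver, from 0.686 ± 0.184 to 3.87 ± 1.42 CPM (log2 fold change 2.49, standard error 0.31, FDR 3.69e-05). The largest decrease was that of SLC6A9, the glycine transporter GLYT1, from 84.9 ± 1.35 to 11.3 ± 2.56 CPM (log2 fold change -2.91, standard error 0.15, FDR 3.5e-08). ENTPD5, a nucleotidase of the endoplasmic reticulum, MAOB, which degrades amines, and ALDH5A1, which completes GABA breakdown, fell by 1.17, 1.11 and 1.04 on the log2 scale. In LGV against LG, 14 were higher and 16 lower of 46 (21.7% and 19.9% of all genes), or 15 and 11 with library size only, and all 8 of these genes moved in the same direction and were called. In HG against LG, 6 were higher and 10 lower of 45 (12.0% and 12.7% of all genes), and these 16 calls became 10 without HG replicate 2 or LG replicate 2 and 9 without HG replicate 3 or LG replicate 1.

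Scaffold and auxiliary proteins that gather receptors at the membrane were a list of 48 with 31 in the table. In HGV against HG, 11 of 31 were higher and 3 lower, with a median log2 fold change of 0.12, where 25.8% of all genes were higher and 20.2% lower (46.1% in all). In LGV against LG 12 of 31 were higher and 4 lower (21.7% and 19.9% of all genes, 41.6% in all). The 4 lower calls became 1 without LGV replicate 1, 2 or 3 or LG replicate 1, and 2 without LG replicate 3, and with upper quartile factors or library size only 13 were higher and 1 lower. Limited to the 29 genes with a mean of at least 10 reads over the untreated libraries, 9 were higher and 3 lower in high glucose, and 10 and 4 in low glucose. Of all genes so limited, 22.7% were higher and 21.3% lower in high glucose, and 19.0% and 20.8% in low glucose. The AMPA receptor auxiliary genes CNIH2 (log2 fold change 3.42, standard error 0.26, FDR 6.21e-07) and CACNG4 (log2 fold change 3.02, standard error 0.40, FDR 5.4e-05) rose, as did the postsynaptic gene DLGAP3 (log2 fold change 3.35, standard error 0.23, FDR 3.1e-07). CNIH2, CACNG4 and DLGAP3 stayed below 8 CPM in each group mean. Without VPA, CNIH2 was at 0.244 CPM in LG and 0.266 in HG, and CACNG4 at 0.364 and 0.130. Both had a mean below 10 reads over the untreated libraries and were in the table through the treated ones. RAPSN, which clusters the muscle nicotinic receptor, PICK1 and SHANK2 fell by 1.00, 0.61 and 0.47 on the log2 scale. In HG against LG, 3 of 29 were higher and 2 lower (12.0% and 12.7% of all genes), or 5 and 2 with upper quartile factors, and these 5 calls became 8 without LG replicate 3.

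G protein subunits, adenylyl cyclases and regulators of G protein signalling were a list of 50 with 39 in the table. In HGV against HG, 22 of 38 were higher and 5 lower, with a median log2 fold change of 0.61, where the shares over all genes were 25.8% higher and 20.2% lower and their median 0.02. In LGV against LG 21 of 37 were higher and 4 lower (21.7% and 19.9% of all genes). Some of these genes, GNAO1, RGS9 and ADCY4 among them, had a mean below 10 reads over the untreated libraries. They were in the table through the treated ones. Limited to the 33 with a mean of at least 10 reads over the untreated libraries, 17 were higher and 5 lower in high glucose (22.7% and 21.3% of all genes so limited), with a median of 0.37, and 17 and 4 in low glucose (19.0% and 20.8%). GNAO1, the alpha subunit abundant in brain to which GABA-B and M4 receptors couple, rose from 0.345 ± 0.0841 to 7.14 ± 1.28 CPM (log2 fold change 4.35, standard error 0.25, FDR 7.12e-08), and ADCY3, an adenylyl cyclase, from 1.20 ± 0.251 to 6.48 ± 1.11 CPM (log2 fold change 2.43, standard error 0.21, FDR 2.03e-06). RGS9 had 2 reads in all in HG, for a ratio of HGV to HG of 62.1 (95% exact Poisson interval 16.9 to 518), and ADCY4 had 3, for a ratio of 55.0 (18.5 to 269). GNAS, the stimulatory alpha subunit, fell from 1184 ± 84.0 to 844 ± 87.3 CPM (log2 fold change -0.49, standard error 0.12, FDR 0.00396). GNAQ, ADRBK1 (the receptor kinase GRK2) and RGS12 fell by 0.60, 0.54 and 0.46 on the log2 scale. In HG against LG, 2 of 33 were higher and 6 lower (12.0% and 12.7% of all genes), and these 8 calls became 5 without HG replicate 1 and 2 without LG replicate 1.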

How the data were processed

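RNA of 12 HepG2 libraries, 3 per group by the labels, was sequenced by the authors as 50 nt single-end reads from a strand-specific poly(A) kit, trimmed, aligned with STAR to GRCh37 (Ensembl 75) and counted with featureCounts at a mapping quality threshold of 10. The deposited values are raw counts per gene, without normalization, for 16389 genes with an average of at least 10 reads per library. Whether counting used strand, and a sequencing batch, are not given in the sources used here.

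The 39 genes and the other lists were chosen with earlier results of these data known. Genes with a mean of at least 10 reads in the libraries compared were tested with edgeR 4.0.16 (R 4.3.3) with TMM factors, the quasi-likelihood test and Benjamini-Hochberg adjustment over all genes tested. Each comparison was fitted on its own 6 libraries and the interaction on 12. The fit was tested on simulated data. Values in every library are given for genes called in at least 1 of 5 comparisons with a group mean of at least 1 CPM, and of other lists up to 4 genes per direction with the largest change in HGV against HG past the threshold and at least 1 CPM in HG or HGV, of which 1 is not reported here. ADCY4, RGS9, GABRB1 and P2RX7, with few or no untreated reads, have ratios of reads with exact Poisson 95% intervals, which cover counting error only. Lengths, positions and overlaps came from GENCODE 44 lifted to GRCh37, which matched 97.47% of genes by identifier. Depth, 29798442 to 45572694 reads, limits genes near the floor of 3 reads. Other normalizations, filters, tests (DESeq2 1.42.0), thresholds, a replicate block and leaving out each library were tried.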

Additional observations from a re-analysis of the deposited data

How the results depend on the processing

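No call reversed. The 77 calls of single receptor genes were recomputed under each alternative, which gave 1133 values, of which 1063 stayed called in the same direction and 70 lost the call, and 58 calls held in every alternative. The number of receptor genes called in HG against LG went from 13 to 7 when a gene needed 1 CPM in 3 libraries, to 7 at an FDR of 0.01, and from 6 to 18 with 1 library left out. In HGV against HG it ranged from 23 to 26 (25 with all libraries), in LGV against LG from 17 to 23 (22) and in HGV against LGV from 13 to 18 (17). For the interaction it was 1 with the likelihood ratio test of edgeR, 1 with the Wald test of DESeq2, and 0 to 1 with 1 library left out. In HG against LG, handling genes called went from 16 to 9 at an FDR of 0.01 and ranged from 9 to 24, with 9 without HG replicate 3 or LG replicate 1 and 10 without HG replicate 2 or LG replicate 2. Scaffold genes went from 5 to 8 in a fit of all 12 libraries and ranged from 4 to 8, with 8 without LG replicate 3. G protein signalling genes went from 8 to 4 at an FDR of 0.01 and ranged from 2 to 9, with 5 without HG replicate 1 and 2 without LG replicate 1. The causes were not tested. A limit chosen after seeing the data kept only genes with a mean of at least 10 reads in untreated libraries. Of receptor genes so limited, 19 of 29 were called in HGV against HG and 18 of 31 in LGV against LG. The same limit gave 29 of 45 and 29 of 44 handling genes and 12 of 29 and 14 of 29 scaffold genes. For G protein signalling genes it gave 22 of 33 and 21 of 33. Of all genes so limited, 22.7% were higher and 21.3% lower in HGV against HG, and 19.0% and 20.8% in LGV against LG. Scaling by library size alone moved the median log2 fold change of all genes to 0.146 in HGV against HG, 0.156 in LGV against LG and 0.106 in HG against LG, and upper quartile factors moved it to 0.102 in HG against LG and 0.101 in HGV against LGV.

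Replicate numbers were not treated as pairs, because deviations of same-numbered libraries were correlated from -0.201 to 0.295 and not all above 0.1 in any comparison. With the replicate block, 26 receptor genes were called in HGV against HG, 22 in LGV against LG, 13 in HG against LG, 18 in HGV against LGV and 0 in the interaction. The block ended 1 call of a receptor gene, that of CHRNA5 in HG against LG (FDR 0.0514). For handling genes the block gave 32, 31 and 13 calls in HGV against HG, LGV against LG and HG against LG, for scaffold genes 15, 15 and 7, and for G protein signalling genes 28, 25 and 7. Depth limits what can be said of genes near 3 reads per library, such as GABRB1 and P2RX7 in LG.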
